A study of Mus musculus with 8 samples.

Results

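The genes described here are 42 genes of the mouse cell division cycle, 20 that act in S phase, when DNA is copied, and 22 that act in G2 and mitosis. Each gene was followed through the probe set whose annotation names it alone, and where a gene had several such probe sets the brightest would have been taken, a case that arose for 0 genes. This gave 38 measured genes, 18 of S phase and 20 of G2 and mitosis, out of 14683 genes with a probe set of their own. The other 4, Pcna, Rrm2, Ccnb1 and Cenpf, were not analysed here.

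RNA was measured on 8 Affymetrix arrays, 2 in each of 4 groups. All cells came from 1 mouse embryonic stem cell line, iSOX7, which derives from Ainv18 and makes the transcription factor SOX7 when given doxycycline. FLK1+ cells of embryoid bodies were grown in liquid blast medium with VEGF and IL6, and the blood precursors that emerged were sorted as CD41+ and CD34-. The sorted cells were then kept for 12 or 24 h, without or with doxycycline. A line without the transgene was not analysed under doxycycline here, so an effect of the drug and an effect of SOX7 cannot be told apart. Whether the 2 arrays of a group stand for separate cultures is not stated, and each p-value then covers no more than the spread between those arrays, part of which may be technical.

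Values are log2 intensities after RMA, and a difference of 1 on this scale is a doubling. Sox7 itself read 7.17 and 6.82 without doxycycline and 10.96 and 10.82 with it at 12 h, and 6.96 and 6.84 without and 10.65 and 10.57 with it at 24 h. It was therefore higher in every array labelled as with doxycycline than in every array labelled as without it. Of the sort markers, Itga2b, which encodes CD41, read between 9.27 and 10.89, and Cd34 read between 9.18 and 10.78, where the array medians lay between 6.40 and 6.61. Probe sets differ in brightness and no detection calls were used, so these levels do not show whether either RNA was present. Correlations between arrays ran from 0.9732 to 0.9915. Replicate 2 without doxycycline at 24 h stood apart, with the lowest median, 6.40, and an SD over probe sets of 2.36, where the other arrays had SDs from 2.43 to 2.52.

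Before S phase, CDC6 and CDT1 load the MCM2 to MCM7 helicase onto replication origins, a step called licensing, and cyclin E with its kinase then helps to fire them. The genes for these proteins are classical targets of the E2F factors, whose sites carry letters such as TTTGGCGC. Later, cyclins A and B with CDK1 drive the cell into mitosis, Aurora and Polo kinases build the spindle, and CDC20 turns the anaphase promoting complex on. Many of these later genes are held down outside G2 by the DREAM complex and switched on by B-MYB and FOXM1 through a cell cycle homology region (CHR, letters TTTGAA) that often lies near CCAAT boxes, the sites of NF-Y.

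The promoters of the measured genes were searched for these letters since they are known from genes of these phases and are read from sequence alone, with no use of the array values. RefSeq windows of 250 bases before to 50 bases after the start (GRCm38.p6) were found by symbol for 31 of the 38 genes, and Aurkb, Ccna2, Ccne2, Gins2, Kif20a, Mcm4 and Tpx2 had none. The E2F letters were taken as TTTCGCGC, TTTCCCGC, TTTGGCGC or TTTGCCGC, all motifs were read on both strands, and overlapping matches were counted. Below are the stretches just before the start of 3 licensing genes, with the E2F letters in capitals. They are Mcm6 (chr1:128359706-128359825, minus strand), Mcm5 (chr8:75109344-75109508, plus strand) and Cdc6 (chr11:98908001-98908150, plus strand).
Mcm6: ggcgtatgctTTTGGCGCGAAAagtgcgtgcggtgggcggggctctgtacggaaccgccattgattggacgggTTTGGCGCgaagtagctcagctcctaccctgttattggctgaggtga
Mcm5: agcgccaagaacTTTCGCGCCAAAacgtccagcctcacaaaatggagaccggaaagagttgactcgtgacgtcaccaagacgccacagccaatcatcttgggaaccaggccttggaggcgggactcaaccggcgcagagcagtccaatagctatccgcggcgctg
Cdc6: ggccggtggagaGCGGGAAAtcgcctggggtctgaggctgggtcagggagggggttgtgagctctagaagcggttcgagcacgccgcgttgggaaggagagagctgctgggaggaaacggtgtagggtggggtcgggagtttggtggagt

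Mcm6 held 3 matches and Mcm5 held 2, in each case with a pair of matches that overlap on opposite strands, and Cdc6 held 1. For the mitotic genes, the stretches below show TTTGAA and CCAAT in capitals, on either strand, and in Cdk1 the E2F letters as well. They are Cdk1 (chr10:69352913-69353052), Ccnb2 (chr9:70421540-70421734), Kif23 (chr9:61946785-61946909), Mki67 (chr7:135716380-135716579) and Top2a (chr11:99024190-99024269), all on the minus strand. Each is printed 5′ to 3′ in the direction of its gene, and those of Ccnb2 and Kif23 run 15 bases past the start, since a TTTGAA lies there. Matches outside the printed stretches are not shown.
Cdk1: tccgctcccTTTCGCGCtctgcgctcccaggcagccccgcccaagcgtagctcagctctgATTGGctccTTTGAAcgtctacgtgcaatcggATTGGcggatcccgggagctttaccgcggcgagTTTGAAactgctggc
Ccnb2: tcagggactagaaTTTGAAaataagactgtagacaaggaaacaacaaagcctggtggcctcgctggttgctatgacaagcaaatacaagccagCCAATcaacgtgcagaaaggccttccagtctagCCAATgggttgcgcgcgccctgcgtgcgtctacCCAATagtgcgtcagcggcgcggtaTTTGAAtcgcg
Kif23: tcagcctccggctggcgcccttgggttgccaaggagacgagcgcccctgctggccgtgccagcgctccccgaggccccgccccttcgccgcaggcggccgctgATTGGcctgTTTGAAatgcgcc
Mki67: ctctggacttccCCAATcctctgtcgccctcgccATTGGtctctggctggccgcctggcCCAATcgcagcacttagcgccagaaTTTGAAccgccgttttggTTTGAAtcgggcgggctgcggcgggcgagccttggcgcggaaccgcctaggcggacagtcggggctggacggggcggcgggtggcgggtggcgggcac
Top2a: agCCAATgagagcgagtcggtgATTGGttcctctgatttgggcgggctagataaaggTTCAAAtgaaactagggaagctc

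Cdk1 was the only G2 and mitosis gene among the 16 with a window that held E2F letters. The E2F letters stood in 7 of 18 S phase windows (38.9%), in 1 of 16 G2 and mitosis windows (6.25%) and in 2.26% of all 32851 windows. TTTGAA stood in 2 of 18 S phase windows (11.1%, those of Mcm2 and Fen1), in 12 of 16 G2 and mitosis windows (75.0%) and in 17.9% of all windows. At least 2 CCAAT boxes were found in 44.4% of S phase windows, 56.2% of G2 and mitosis windows and 11.7% of all windows. Counting TTTAAA with TTTGAA gave 27.8%, 87.5% and 27.6%, with the G2 and mitosis genes again the highest. A match is a description of the sequence, and the search and the sequences shown were chosen after the array values had been seen.

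**Figure D1:**
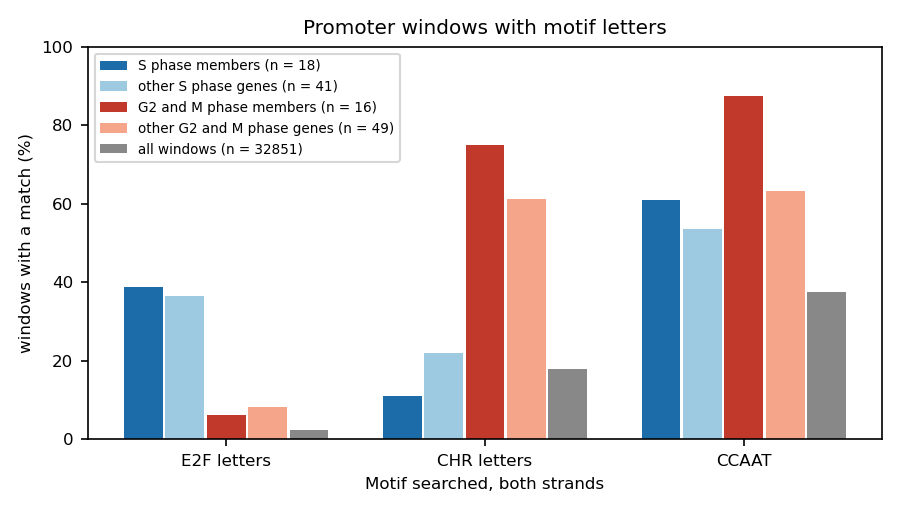
Share of RefSeq promoter windows, in percent, that hold the E2F letters, TTTGAA (CHR) or CCAAT, for the S phase genes, the G2 and mitosis genes, the wider lists of each and all windows. The E2F letters stand in 38.9% of S phase windows and 6.25% of G2 and mitosis windows, and TTTGAA in 11.1% and 75.0%.

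Apart from Slbp, all measured genes lay above the array medians in all 8 arrays, as the plot of members by array shows. Slbp, which encodes the protein that binds the stem-loop of histone mRNA, read 6.78 and 4.92 without doxycycline at 12 h and 5.60 and 5.61 with it, and its standard errors were the largest of the 38. Replicate number moved with these genes. At 12 h, replicate 2 was below replicate 1 for 17 of 18 S phase genes and 20 of 20 G2 and mitosis genes without doxycycline, where 54.6% of all probe sets were lower. With doxycycline at 12 h the counts were 16 and 20, against 53.0% of all probe sets. At 24 h they were 15 and 19 without doxycycline (62.3% of all) and 13 and 16 with it (49.4% of all). The median gap of the G2 and mitosis genes between replicates was -0.40, -0.32, -0.35 and -0.09 in these 4 groups, and the first 3 of these are larger than the median doxycycline differences below. Mean levels of mesenchyme markers also differed by replicate, from 6.47 to 6.73 in replicate 1 and from 7.60 to 7.74 in replicate 2, the opposite direction to the cell cycle genes. Megakaryocyte markers (8.74 and 8.06, 8.18 and 7.47, 9.75 and 8.33, 9.01 and 8.10) and endothelial markers (8.40 and 7.57, 9.20 and 8.79, 8.22 and 7.20, 9.37 and 8.97) had means that were lower in replicate 2 in all 4 groups, as the cell cycle genes were. The part of these markers in the replicate gap was not tested.

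The first question was whether the S phase genes differed with doxycycline. With 12 h of doxycycline, all 18 read lower by the fitted difference, from -0.49 for Cdc6 to -0.15 for Mcm3 and Gins2, with a median of -0.26, where 50.6% of all probe sets were below 0. However, 0 of 18 passed at an adjusted p under 0.05 (limma, Benjamini-Hochberg over 16348 probe sets), and 0.924% of all probe sets passed. At an unadjusted p under 0.05 there were 3, Mcm6, Cdc6 and Cdt1, against 3.66% of all probe sets that were lower at that p. The 2 arrays with doxycycline lay below the 2 without for 13 of 18 genes, against 22.3% of all probe sets. In both replicate pairs 17 of 18 were lower with doxycycline, against 33.9% of all probe sets. Genes read on the same arrays can move together, as the replicate counts above show. Here and below, counts of genes are therefore a description, and the genes are not replicates of a condition.

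Within the helicase, Mcm6 read 10.99 and 10.91 without doxycycline and 10.68 and 10.55 with it at 12 h, and 11.13 and 11.04 without and 10.87 and 10.85 with it at 24 h. At each time both arrays with doxycycline were the lower ones, and the differences were -0.34 ± 0.13 (SE, n = 2 per group, adjusted p = 0.48) at 12 h and -0.23 ± 0.13 at 24 h. The other subunits were smaller in difference, from -0.15 for Mcm3 to -0.28 for Mcm2 at 12 h. At 24 h Mcm3 stood at 0.03 ± 0.17, while Mcm5 stood at -0.28 ± 0.14.

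Of the licensing factors, Cdc6 read 9.12 and 9.10 without doxycycline and 8.74 and 8.51 with it at 12 h, and 9.07 and 8.68 without and 8.82 and 8.52 with it at 24 h. The groups were separate at 12 h and overlapped at 24 h, with differences of -0.49 ± 0.19 (adjusted p = 0.468) and -0.21 ± 0.19. Cdt1 read 9.90 and 9.87 against 9.63 and 9.51 at 12 h, and 10.02 and 10.05 against 9.75 and 9.86 at 24 h. Its groups were separate at both times. Gins2, which encodes a subunit of the GINS complex of the active helicase, stood at -0.15 ± 0.16 and 0.03 ± 0.16.

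Ccne1, for cyclin E1, read 9.43 and 9.17 without doxycycline and 9.0 and 8.88 with it at 12 h, and 9.54 and 9.13 without and 9.0 and 9.04 with it at 24 h. The groups did not overlap at either time, and the differences were -0.36 ± 0.18 and -0.32 ± 0.18. Its paralogue Ccne2 was separate at 12 h, at -0.32 ± 0.22, and overlapped at 24 h, at -0.07 ± 0.22. Rrm1, the large subunit of ribonucleotide reductase, and Chaf1a, a subunit of the chromatin assembly factor CAF-1, were separate at both times, at -0.31 ± 0.15 and -0.28 ± 0.14 at 12 h and -0.19 ± 0.15 and -0.16 ± 0.14 at 24 h. Tyms, for thymidylate synthase, and Fen1, the flap endonuclease, overlapped at both times.

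At 24 h the S phase genes had a median difference of -0.16, with 15 of 18 below 0 (51.6% of all probe sets) and 8 of 18 with separate groups (16.2% of all). In both pairs 12 of 18 were lower, against 27.3% of all. Again 0 of 18 passed, 0 of 18 had an unadjusted p under 0.05, and 1.44% of all probe sets passed. The 2 replicate pairs differed at this time, with a median of -0.26 in pair 1 and -0.08 in pair 2, where all probe sets had medians of -0.06 and 0.06. Pair 2 holds the array that stood apart. Without it, 18 of 18 were below 0 with a median of -0.26, and without replicate 1 of the same group 12 were, with a median of -0.06.

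The G2 and mitosis genes gave differences of the same order. At 12 h of doxycycline their median was -0.24, 18 of 20 were below 0 (50.6% of all probe sets) and 0 of 20 passed, with Kif23 alone at an unadjusted p under 0.05 (3.66% of all probe sets). Separate groups were found for 5 of 20, which is near the 22.3% of all probe sets, and 17 of 20 were lower in both pairs (33.9% of all). The exceptions above 0 were Cdc20, the activator of the anaphase promoting complex, at 0.11 ± 0.20, and Ccnb2, for cyclin B2, at 0.06 ± 0.17. Leaving out replicate 1 without doxycycline brought the median to -0.05 with 12 below 0, and leaving out replicate 2 with doxycycline brought it to -0.09 with 14 below 0. At 24 h the median was -0.14, 18 of 20 were below 0 (51.6% of all probe sets), 5 had separate groups (16.2% of all) and 0 passed. Kif23 was again alone at an unadjusted p under 0.05 (5.08% of all), and 12 of 20 were lower in both pairs (27.3% of all). The count below 0 was 8, with a median of 0.05, without replicate 1 of the untreated group, and was 20, with a median of -0.30, without replicate 2 of it.

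Kif23, which encodes the kinesin of the central spindle and midbody needed for cytokinesis, read 9.22 and 8.89 without doxycycline and 8.66 and 8.49 with it at 12 h, and 9.31 and 8.99 without and 8.70 and 8.75 with it at 24 h. All 4 arrays with doxycycline were below all 4 without. Mki67, for the proliferation antigen Ki-67 that coats mitotic chromosomes, read 10.03 and 9.44 against 9.32 and 8.85 at 12 h, and 10.45 and 9.86 against 9.90 and 9.75 at 24 h. Its groups were separate at 12 h and overlapped at 24 h.

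Within the mitotic cyclin and CDK1 genes, the 12 h groups were separate for Ccna2 and overlapped for Ccnb2 and Cdk1. The difference between genes was not tested. Ccna2, for cyclin A2, read 10.88 and 10.63 without doxycycline and 10.54 and 10.27 with it. Its difference of -0.35 ± 0.17 did not pass (limma, adjusted p = 0.658). Cdk1 read 9.82 and 9.33 without and 9.68 and 9.36 with it, a difference of -0.06 ± 0.21 with groups that overlap. The 6 kinase and checkpoint genes (Aurka, Aurkb, Birc5, Plk1, Bub1 and Bub1b) ranged from -0.17 for Bub1 to -0.35 for Birc5, which encodes survivin. The 6 spindle genes ranged from -0.15 for Tpx2 to -0.48 for Kif23.

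Over both times, with 4 arrays per arm and time in the model, the median difference was -0.21 for S phase and -0.19 for G2 and mitosis, with 17 of 18 and 20 of 20 below 0. In this comparison 4.42% of all probe sets passed, and 0 of 18 and 0 of 20 of these genes did, while 9 and 3 were lower at an unadjusted p under 0.05. The share of all probe sets lower at that p was 7.08%, so the count of G2 and mitosis genes was not far from it. All 4 arrays with doxycycline lay below all 4 without for 6 S phase genes (Mcm2, Mcm5, Mcm6, Ccne1, Cdt1 and Chaf1a) and 1 G2 and mitosis gene (Kif23), where 3.58% of all probe sets did so. Mcm6 stood at -0.28 ± 0.09 (adjusted p = 0.132), Cdt1 at -0.27 ± 0.08 (adjusted p = 0.136) and Ccne1 at -0.34 ± 0.12 (adjusted p = 0.189).

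Replicate numbers were taken to pair the arrays across groups, which the labels do not state. With the number as a block 2 of the 38 genes passed, a share below the 7.53% of all probe sets. Kif23 was at -0.45 ± 0.12 (adjusted p = 0.0741) without the block and fell with it (adjusted p = 0.0261), a 1.37-fold lower level. Mki67 was at -0.49 ± 0.19 (adjusted p = 0.262) without the block and fell with it (adjusted p = 0.0434), a 1.40-fold lower level. Kif23 also passed without replicate 2 of the untreated group at 24 h, at -0.52 (adjusted p = 0.0465). In bulk RNA, fewer cycling cells and less of these RNAs per cell cannot be told apart.

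**Figure D2:**
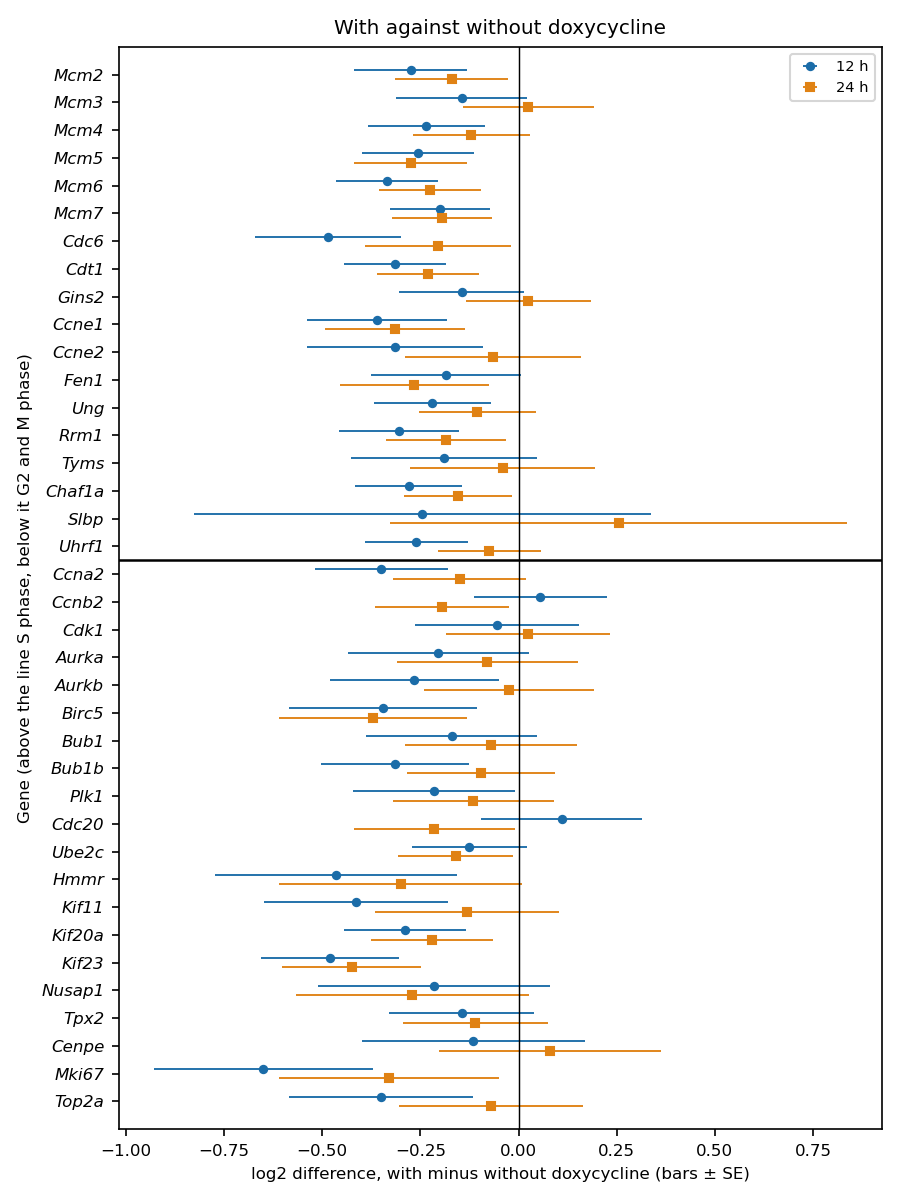
Fitted log2 difference, with doxycycline minus without, at 12 h and at 24 h for each measured gene, with bars of 1 SE (n = 2 arrays per group). Nearly all points lie below 0, 18 of 18 S phase genes and 18 of 20 G2 and mitosis genes at 12 h, and 0 pass the adjusted threshold.

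The change of the doxycycline difference from 12 to 24 h was tested as its own term. It passed for 0 of 18 and 0 of 20 genes, and for 0% of all probe sets. At an unadjusted p under 0.05, 0 of the 38 genes and 301 probe sets with a lower and 204 with a higher value were counted. The fitted change was above 0 for 16 of 18 S phase genes (median 0.12) and 15 of 20 G2 and mitosis genes (median 0.10), against 50.5% of all probe sets. Both counts depended on single arrays. Without replicate 2 of the untreated group at 24 h, the S phase median was 0.02 with 11 of 18 above 0, without replicate 2 of the treated group at 12 h it was 0.04 with 14, and without replicate 1 of the untreated group at 12 h it was 0.06 with 12. The G2 and mitosis count lay between 6 and 18 when each array was left out, with 6 without replicate 1 of the untreated group at 12 h, 6 without replicate 2 of the treated group at 12 h and 7 without replicate 2 of the untreated group at 24 h.

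The next question was how the same genes differed between 12 and 24 h of culture. Here the G2 and mitosis genes had the larger values. Without doxycycline, the difference of 24 h minus 12 h had a median of 0.04 for S phase, with 12 of 18 above 0, and 0.27 for G2 and mitosis, with 20 of 20 above 0 (48.6% of all probe sets). All 20 G2 and mitosis genes and 9 of 18 S phase genes were higher in both replicate pairs, against 25.2% of all probe sets. Yet 0 of 38 passed, 2 (Ccnb2 and Bub1) were higher at an unadjusted p under 0.05 (4.53% of all probe sets), and 0.147% of all probe sets passed. The S phase count was 7 without replicate 2 at 12 h and 5 without replicate 1 at 24 h. In the same cases the G2 and mitosis count was 16, with medians of 0.11.

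With doxycycline, the medians were 0.14 for S phase, with 15 of 18 above 0, and 0.40 for G2 and mitosis, with 20 of 20 above 0 (46.7% of all). Both arrays at 24 h lay above both at 12 h for 19 of 20 G2 and mitosis genes, the exception being Cdc20, and for 9 of 18 S phase genes, against 18.7% of all probe sets. Without doxycycline these counts were 5 and 4, against 14.6%. With doxycycline 19 of 20 and 13 of 18 were higher in both pairs, against 29.4% of all probe sets, while 0 of 38 passed, 4 G2 and mitosis genes were higher at an unadjusted p under 0.05 (3.87% of all), and 0.184% of all probe sets passed. Without replicate 2 at 12 h the medians were 0.04 for S phase and 0.20 for G2 and mitosis, with 13 and 19 above 0, and without replicate 1 at 12 h they were 0.23 and 0.57. The treated and untreated time courses use different arrays, while each shares its arrays with the doxycycline comparisons above.

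Ccnb2 read 9.78 and 9.41 at 12 h and 10.38 and 10.16 at 24 h without doxycycline, and 9.72 and 9.58 and then 10.09 and 10.06 with it. Every array at 24 h was above every array at 12 h, and the differences were 0.68 ± 0.17 (adjusted p = 0.298) without and 0.43 ± 0.17 (adjusted p = 0.692) with doxycycline. Bub1, a kinase of the spindle checkpoint, read 9.13 and 8.68 and then 9.73 and 9.25 without, and 8.85 and 8.62 and then 9.42 and 9.42 with doxycycline. It too was higher in every array at 24 h than in every array at 12 h. Mki67 had the largest fitted difference with doxycycline among the 38 genes, 0.74 ± 0.28 (adjusted p = 0.658), and 0.42 ± 0.28 without.

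The other G2 and mitosis genes with large differences were Hmmr, a spindle assembly protein, and Nusap1, which bundles spindle microtubules. Hmmr read 8.80 and 8.22 and then 9.37 and 8.56 without doxycycline, so its untreated groups overlapped, and 8.24 and 7.85 and then 8.78 and 8.55 with it, where they were separate. Nusap1 had the same pattern, at 0.53 ± 0.30 without and 0.47 ± 0.30 with doxycycline. Kif23, which had the smallest p for doxycycline over both times, had the smallest time difference of the mitotic genes over both arms, 0.12 ± 0.12. Cdc20 was at 0.35 ± 0.20 without and 0.03 ± 0.20 with doxycycline.

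Among the S phase genes, Mcm7 had the smallest p over both arms, at 0.23 ± 0.08 (adjusted p = 0.32), reading 10.55 and 10.53 and then 10.75 and 10.78 without doxycycline, and 10.39 and 10.29 and then 10.52 and 10.62 with it. Groups were separate in both arms. Tyms stood on the other side of 0 in both arms, at -0.26 ± 0.24 and -0.11 ± 0.24, as did Ung, for uracil DNA glycosylase, at -0.21 ± 0.15 and -0.10 ± 0.15. Uhrf1, which carries DNA methylation through replication, was at 0.00 ± 0.09 over both arms.

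Over both arms the medians were 0.08 for S phase and 0.34 for G2 and mitosis, with 15 of 18 and 20 of 20 above 0 (47.8% of all probe sets), and 20 of 20 in each fit that left out 1 array. All 4 arrays at 24 h lay above all 4 at 12 h for 2 of 20 G2 and mitosis genes, Ccnb2 and Bub1, and 0 of 18 S phase genes, against 2.73% of all. In this comparison 0.624% of all probe sets passed, 0 of 38 genes among them. At an unadjusted p under 0.05 there were 2 S phase genes and 12 G2 and mitosis genes with higher values, where 6.53% of all probe sets were. The S phase count is near that share. With the replicate block 2.16% of all probe sets passed. Ccnb2 was at 0.55 ± 0.12 (adjusted p = 0.105) without the block and rose with it (adjusted p = 0.0361), to a 1.46-fold higher level. Bub1 was at 0.64 ± 0.14 (adjusted p = 0.117) without the block and rose with it (adjusted p = 0.0277), to a 1.55-fold higher level.

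**Figure D3:**
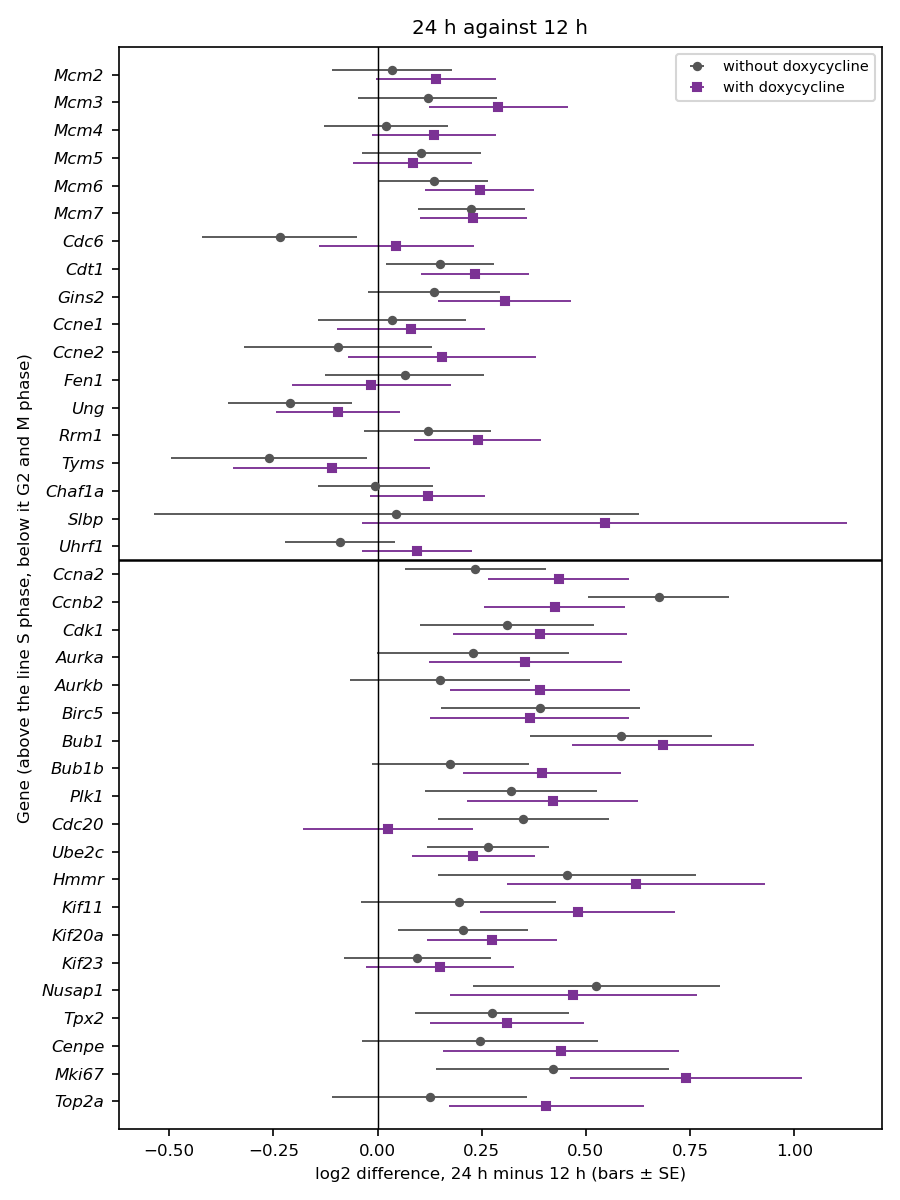
Fitted log2 difference, 24 h minus 12 h, without and with doxycycline for each measured gene, with bars of 1 SE (n = 2 arrays per group). All 20 G2 and mitosis genes lie above 0 in both arms, while the S phase genes have medians of 0.04 and 0.14.

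The balance between the gene groups was then read within each array, which removes what shifts both alike. The mean log2 value of the G2 and mitosis genes minus that of the S phase genes was -0.19 and -0.39 at 12 h without doxycycline and -0.20 and -0.35 with it. At 24 h it was 0.07 and -0.06 without and -0.02 and -0.03 with doxycycline. All 4 arrays at 24 h were above all 4 at 12 h, while at each time the arrays with and without doxycycline overlapped. Replicate 2 was below replicate 1 in all 4 groups, so this measure did not remove the replicate gap. Probe sets differ in brightness, so the level of this difference has no meaning of its own and only its shift between arrays can be read.

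**Figure D4:**
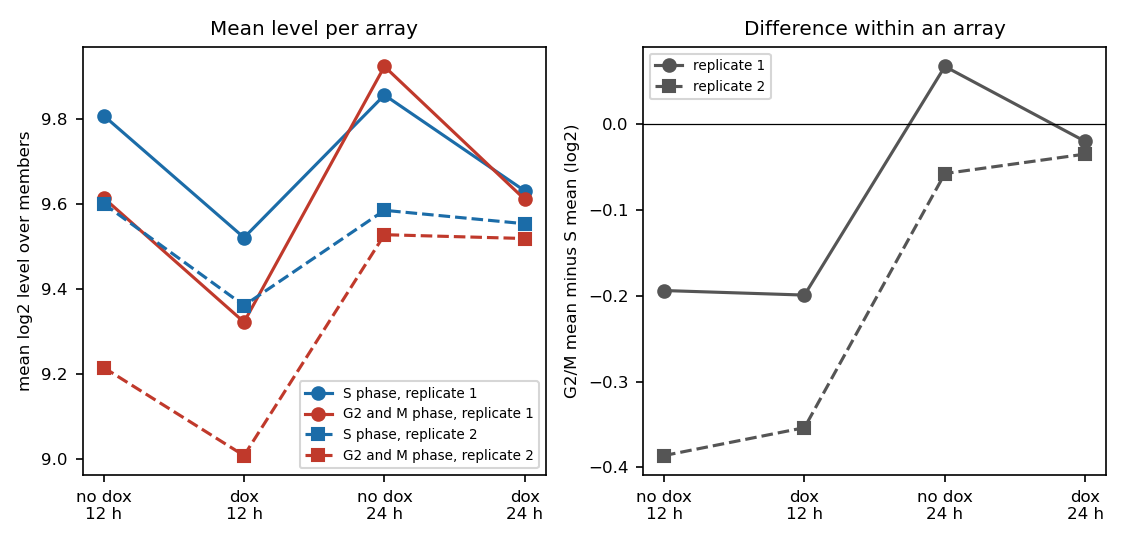
Mean log2 value of the 18 S phase genes and of the 20 G2 and mitosis genes in each array, and the second minus the first. The difference lies between -0.39 and -0.19 in the 12 h arrays and between -0.06 and 0.07 in the 24 h arrays.

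Further genes of the same steps were read beside these, on the same arrays, so they are no independent repeat. Of 46 other measured S phase genes, 46 were below 0 at 12 h of doxycycline with a median of -0.24, and of 54 other G2 and mitosis genes 49 were, with a median of -0.23, and 0 passed in any of the 7 comparisons. At 24 h of doxycycline the medians were -0.10 and -0.14, with 33 of 46 and 44 of 54 below 0, and 8 and 10 had separate lower groups, near the 16.2% of all probe sets. For the other S phase genes the pair medians at 24 h were -0.25 and 0.04. The time difference without doxycycline had medians of -0.02 and 0.17, with 22 of 46 and 45 of 54 above 0. Over both arms it had medians of 0.07 and 0.24, with 34 of 46 and 50 of 54 above 0. Their within-array difference was -0.21 and -0.29 without and -0.19 and -0.21 with doxycycline at 12 h, and -0.05 and -0.07 without and -0.06 and -0.08 with it at 24 h, so the 24 h arrays were again all higher. With the replicate block, 1 of 46 and 1 of 54 passed for doxycycline and 0 of 46 and 2 of 54 for time, where 7.53% and 2.16% of all probe sets passed, so the share for doxycycline was below that of all probe sets and the share for time was near it. Dscc1, a subunit of an alternative clamp loader, fell with doxycycline under the block (-0.41, adjusted p = 0.0232; 0.217 without the block). So did Cdc25b, a phosphatase that activates CDK1 (-0.73, adjusted p = 0.0317; 0.285 without). Nuf2, a kinetochore protein, rose with time under the block (0.45, adjusted p = 0.0474; 0.135 without), as did the condensin subunit Ncapd2 (0.41, adjusted p = 0.0406; 0.198 without).

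Among 10 measured genes for G1 cyclins, their kinases and regulators of these, 1 passed at 12 h of doxycycline, against 0.924% of all probe sets. Over both times 2 passed, Ccnd2 and Cdk6, against 4.42% of all probe sets. The list was split, with 5 of 10 below 0 and 5 above 0. Cdk2 read from 9.83 to 10.18 without and from 10.20 to 10.47 with doxycycline, and did not pass. Ccnd2, for cyclin D2, read 12.02 and 11.95 without and 11.14 and 10.78 with doxycycline at 12 h, and 11.43 and 11.37 without and 10.62 and 10.75 with it at 24 h. It fell by 1.03 at 12 h (SE 0.16, adjusted p = 0.0387) and by 0.87 over both times (SE 0.12, adjusted p = 0.00517). At 24 h its difference of -0.715 did not pass (adjusted p = 0.0921). The 12 h call was lost in a fit of only those 2 groups (adjusted p = 0.128) and in 6 of the 8 fits that left out 1 array. Cdk6, a partner of the D cyclins, fell over both times by 0.80 (SE 0.14, adjusted p = 0.0181), read at 8.16 to 8.70 without and 7.47 to 8.0 with doxycycline, and lost its call in 2 of 8 fits without 1 array. Of 19 measured cell cycle transcription factors, E2f8, a repressor of the E2F family, fell over both times (-0.46, adjusted p = 0.0476), a call lost in 7 of 8 fits without 1 array. E2f8 alone passed among these 19, which is near the 4.42% of all probe sets. Of 13 measured CDK inhibitors and growth arrest genes, 5 passed over both times, against the same 4.42%. Gadd45g and Btg1 were higher, and Gadd45a, Btg2 and Cdkn2a were lower. Btg1 lost its call in 5 of 8 fits without 1 array.

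Markers of some cell types moved with doxycycline and with time. Of 11 mesenchyme markers 0 passed for doxycycline over both times, and of 8 mast cell markers 1 did, which was higher. For time over both arms 0 of either list passed. The mean of 13 erythroid markers was 10.77 to 10.94 without and 9.76 to 9.97 with doxycycline at 12 h. At 24 h it was 11.06 to 11.36 against 10.17 to 10.28. Over both times 9 of 13 passed lower, against 296 of all 16348 probe sets. The mean of 14 endothelial markers was 7.57 to 8.40 against 8.79 to 9.20 at 12 h and 7.20 to 8.22 against 8.97 to 9.37 at 24 h. Over both times 7 of 14 passed higher, against 427 of all 16348 probe sets. With time, the mean of 11 myeloid markers went from 5.70 to 5.92 at 12 h to 6.84 to 7.49 at 24 h without doxycycline. With doxycycline it went from 5.25 to 5.51 to 6.01 to 6.11. Over both arms 3 of 11 passed higher, as did 2 of 13 erythroid and 0 of 14 endothelial markers, against 83 of all 16348 probe sets. For doxycycline over both times, 5 of 11 myeloid and 1 of 10 megakaryocyte markers passed lower, against 296 of all 16348 probe sets. The mean of 10 megakaryocyte markers read 8.06 to 8.74 and then 8.33 to 9.75 without, and 7.47 to 8.18 and then 8.10 to 9.01 with doxycycline, with 0 passing over both arms. The part of these shifts in the S phase and mitosis values was not tested.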

How the data were processed

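Log2 expression values of 16348 probe sets in 8 arrays were used as deposited by the authors, made with RMA in Affymetrix Power Tools per the submitters' processing notes. RMA corrects background, normalizes arrays and summarises probes, and any centring or filter beyond it is not given in the sources used here. Groups and replicate numbers came from the titles. The platform annotation gave the gene names (14785 with 1 symbol, 950 with several, 613 with none), and only those with 1 symbol were named.

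Every probe set was fitted with limma 3.58.1 in R 4.3.3, with 1 mean per group (4 residual degrees of freedom, prior 3.44), or with terms for doxycycline and time (5, prior 3.33). Benjamini-Hochberg adjustment ran over all probe sets, and an adjusted p under 0.05 passed. The fits were tested on simulated data with planted changes in 200 probe sets for doxycycline at 12 h. Those changes were larger than the difference of any member, the noise was independent between arrays and no block was used. The simulation therefore does not cover differences as small as those of the members. Precision is limited by the number of arrays. Deviations of same-numbered arrays correlated at r = 0.298 to 0.428 across probe sets in every pair of groups. The numbers were therefore taken to pair the arrays, at single times as well as in the comparisons with 4 pairs. Named genes were Sox7, all members, and in other lists up to 4 with the smallest p and all that passed where 10 or fewer did. Members and lists were chosen with earlier results of these data known, and the members described with all their values were picked after those were seen. Alternatives were repeated quantile normalization, centring on the array median, eBayes with an intensity trend, leaving out the dimmest 33.3% of probe sets, averaged probe sets, the block, a fit restricted to the compared groups, and fits without each array in turn. The wider CHR letters were added after seeing the data.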

Additional observations from a re-analysis of the deposited data

Results flagged for a closer look

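Of the 38 measured genes, 2 had replicate pairs that moved from 12 to 24 h in opposite directions without and with doxycycline. Both are S phase genes. The share of all probe sets with this pattern was not computed, so the count is not read as a result. For Cdc6 the pairs were at -0.05 and -0.42 without and at 0.08 and 0.01 with doxycycline, a difference of 0.28 ± 0.26 (SE) between the arms (limma interaction term, adjusted p = 1). For Uhrf1 the pairs were at -0.07 and -0.11 without and at 0.06 and 0.13 with doxycycline, a difference of 0.185 ± 0.19 (adjusted p = 1).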

How the results depend on the processing

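With 2 arrays per group, few probe sets passed at single times, and their number depended on the settings. For doxycycline at 12 h, at 24 h, time without and time with doxycycline, and time over both arms, the numbers passing were 241, 415, 61, 49 and 224 after repeated quantile normalization, and 239, 367, 51, 58 and 199 without the dimmest probe sets. With an intensity trend the time comparisons gave 44, 62 and 183. The replicate block gave 467, 677, 130, 123 and 353, and 1231 for doxycycline over both times. Fits of only the groups compared (2 residual degrees of freedom) gave 0, 126, 1 and 0 for the first 4, and could not be made for the others. Leaving out each array gave 7 to 201, 4 to 297, 0 to 36, 0 to 29 and 45 to 146, and 377 to 730 for doxycycline over both times.

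Members passed only under some settings, and only over both times or both arms. For doxycycline, 1 S phase gene passed after quantile normalization (Ccne1, adjusted p = 0.0462) and 1 with the trend (Mcm6, adjusted p = 0.0299). Of the G2 and mitosis genes, 1 passed (Kif23) after quantile normalization, median centring and without dim probe sets, 2 passed with the block, and 0 to 1 did when arrays were left out. For time, 2 passed (Ccnb2 and Bub1) after quantile normalization and with the block. The block changed no other member's call. Leaving out each array gave 8 to 20 G2 and mitosis genes below 0 for doxycycline at 24 h, 6 to 18 above 0 for the difference of effects, and 5 to 15 S phase genes above 0 for time without doxycycline. Each member that passed under a setting had the same direction there as in the main fit. Medians could change sign. That of the G2 and mitosis genes for doxycycline at 24 h did so without replicate 1 of the untreated group at that time.

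No detection calls were used, so no bound is set on dim probe sets.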

Other observations

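The genes of the DNA damage checkpoint and of DNA repair that act beside replication had a median of -0.30 at 12 h of doxycycline. All 18 measured were below 0, where 50.6% of all probe sets were, and 0 passed. At 24 h their median was -0.04, with 10 of 18 below 0 (51.6% of all), and 0 passed. Bard1, the partner of BRCA1, read 8.11 and 7.92 without and 7.74 and 7.68 with doxycycline at 12 h, and 8.29 and 8.08 without and 8.01 and 7.82 with it at 24 h, a difference over both times of -0.29 ± 0.10 (adjusted p = 0.184). Fanci, of the Fanconi anaemia pathway, was at -0.36 ± 0.16 (adjusted p = 0.341). Over both arms, the time difference of these genes had a median of 0.05.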
